A study of Mus musculus with 6 samples.

Results

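The genes described here are 32 nuclear-encoded enzymes and carriers of the tricarboxylic acid (TCA) cycle and of mitochondrial fatty acid beta-oxidation. They were chosen by name from a table of 54532 genes, with earlier results of these data known: 13 were listed under the TCA cycle and 19 under fatty acid oxidation. The 13 include Mdh1, the cytosolic malate dehydrogenase. RNA sequencing was performed on MC3T3-E1, a mouse calvarial pre-osteoblast cell line. All 6 samples were kept in osteogenic medium, which per the study's methods contained β-glycerophosphate, ascorbic acid and dexamethasone, and the comparison asked how gene expression differed when 0.2 mM metformin, a biguanide drug for lowering blood glucose, was added for 3 days. The control group (3 samples) received osteogenic medium alone and the metformin group (3 samples) received the medium with metformin. The groups therefore share the differentiation stimulus, both represent 1 cell line in culture at 1 dose and 1 time, and no sample without osteogenic induction was analysed here.

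The values are FPKM, fragments scaled to gene length and to a library size for each sample. Within that scaling, levels were compared between genes and between samples. The reads behind the values numbered 18399861 to 20652437 in the control samples and 19256672 to 22111790 in the metformin samples. The library sizes implied by the values were not these totals, for example 19655718 against 18792236 reads in control replicate 3. All 8 osteoblast lineage markers were detected in every sample, and their summed level was 10004 to 11752 FPKM in the controls and 6793 to 7184 FPKM with metformin. Within that list Col1a1 and Col1a2 rose, Spp1 and Ibsp fell, and Alpl, tissue-nonspecific alkaline phosphatase, lay at 2.44 to 3.84 FPKM. Of 7 adipocyte markers, 5 were under 0.5 FPKM in every sample with Cfd and Cidec at 0, and the summed level was 7.86 to 12.1 FPKM in the controls and 8.50 to 9.60 FPKM with metformin. The others were Cebpa, at 4.67 to 10.1 FPKM, and Fabp4, at 1.65 to 2.95 FPKM. All 4 myocyte markers were under 0.5 FPKM in every sample (Myod1 and Myog at 0), as were all 3 endothelial markers and 3 of 4 leukocyte markers, the exception being Cd68, which fell from a mean of 2.04 to 1.17 FPKM. The 4 chondrocyte markers summed to 26.6 to 39.9 FPKM in the controls and 28.7 to 30.4 FPKM with metformin. Nearly all of this came from Sox9, at 19.9 to 28.1 FPKM, and Col2a1, at 6.44 to 11.9 FPKM. Transcripts encoded by the mitochondrial genome itself, which are not among the 32 genes, took 6.36% to 10.01% of reads in the controls and 2.72% to 3.16% with metformin. The part of this difference and of the marker differences in the results below was not tested. Control replicate 1 stood apart, with correlations across genes of 0.960 and 0.952 with the other controls, which correlated at 0.988 with each other, so counts are given with and without it.

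In the TCA cycle, acetyl-CoA condenses with oxaloacetate to form citrate, which is oxidised step by step back to oxaloacetate while NADH and FADH2 are formed for the respiratory chain. Fatty acids reach the same acetyl-CoA by another route: long-chain acyl groups enter the mitochondrion on carnitine, and a repeated sequence of dehydrogenation, hydration, a further dehydrogenation and thiolysis then shortens the chain. Differentiating osteoblasts are known to draw on both glucose and fatty acids as fuels.

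Metformin changed 8 of the 32 genes, 5 upward and 3 downward, in a pattern split within each pathway. In the TCA cycle Cs, Idh2 and Suclg2 rose and Idh3b fell. In fatty acid oxidation Acat1 and Eci2 rose, whereas Acaa2 and Acadm fell. Acaa2 and Acat1, a pair of mitochondrial thiolases, lay at the 2 ends of the range of log2 fold changes: Acaa2 fell by 46.1% and Acat1 rose by 56.2% with metformin. A gene was called when limma's moderated test on log2(FPKM + 1) gave a Benjamini-Hochberg adjusted p under 0.05 over the 12681 genes with a mean of at least 0.5 FPKM, a group that held all 32 genes. On this scale fold changes of low genes are understated.

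The share of genes called, 25.0% of 32, was near the 22.5% called among all tested genes (13.2% higher and 9.28% lower), so the number of calls does not set these pathways apart. Metformin and control samples did not overlap for 19 of the 32 genes (59.4%), 9 with metformin above and 10 below, where 44.1% of all tested genes did not overlap (23.6% above and 20.5% below). The median log2 fold change of the 32 genes was -0.014 against 0.0053 for all tested genes, and the median absolute log2 fold change was 0.18 against 0.23. By pathway the median was 0.086 for the 13 TCA cycle genes and -0.063 for the 19 fatty acid oxidation genes. In bulk RNA of this kind, fewer cells expressing a gene and less of its RNA per cell cannot be told apart.

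**Figure D1:**
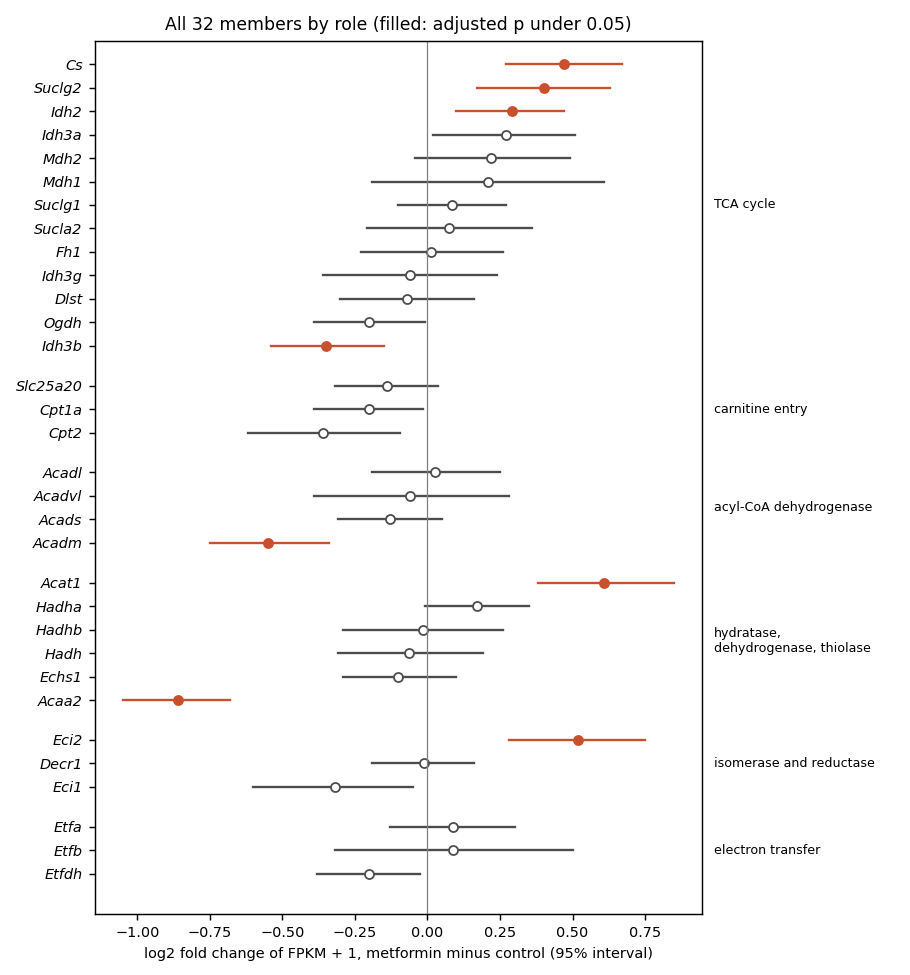
Log2 fold change of FPKM + 1, metformin minus control, on the x axis for each of the 32 genes on the y axis, grouped by role, with 95% intervals from limma and filled points for an adjusted p under 0.05. The filled points lie on both sides of 0 in the TCA cycle and in fatty acid oxidation, from -0.86 for Acaa2 to 0.61 for Acat1.

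Summed over the 13 TCA cycle genes, the level was 387, 376 and 346 FPKM in the control samples and 414, 420 and 405 FPKM in the metformin samples. Every metformin sum lay above every control sum. For the 19 fatty acid oxidation genes the sums were 309, 313 and 297 FPKM in the controls and 279, 285 and 279 FPKM with metformin, and here every metformin sum lay below every control sum. The sums are dominated by the most abundant genes and were not tested. Those of the TCA cycle include the cytosolic enzyme Mdh1, at 72.5 FPKM in control replicate 1.

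The number of calls depended on single libraries. Without control replicate 1, 15 of the 32 genes were called, 8 higher and 7 lower, where 43.8% of all genes were called, 23.4% higher and 20.4% lower. The 7 further genes were Idh3a, Mdh1 and Sucla2, which were higher, and Cpt1a, Eci1, Etfdh and Ogdh, which were lower. Without metformin replicate 1, 2 or 3, the calls numbered 4, 3 and 4, where 11.3%, 11.5% and 12.0% of all genes were called. Acaa2, Acadm and Acat1 were called with any 1 of the 6 samples left out. After correction for the GC content of transcripts 4 of the 32 genes were higher and 8 lower, where 35.4% of all genes were called, 16.3% higher and 19.2% lower.

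**Figure D2:**
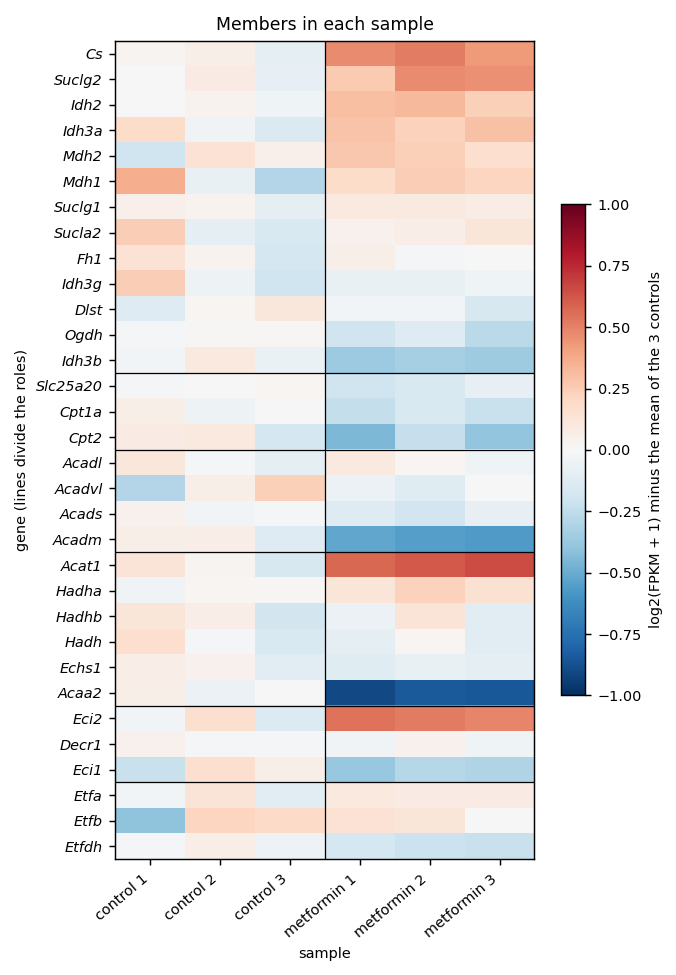
Heat map of the 32 genes (rows, grouped by role) in the 6 samples (columns), coloured by log2(FPKM + 1) minus the mean of the 3 controls. Acaa2 and Acadm are blue and Acat1, Eci2 and Cs red in all 3 metformin columns, while control 1 departs from the other controls for Mdh1 and Etfb.

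The upstream sequences of Cs, Suclg2 and Acadm, called genes of the 2 pathways that moved in opposite directions, are shown with the short interval between the divergent genes Hadha and Hadhb, which encode the subunits of a single complex. They are RefSeq sequences on GRCm38.p6 and contain no annotated exon base. Each of the first 3 windows is 120 bases long, and capitals mark CCAAT and GGGGCGGGG on either strand (ATTGG and CCCCGCCCC in reverse). The motifs and the genes shown were chosen after the values had been seen.
Cs, chr10:128337607-128337726, plus strand: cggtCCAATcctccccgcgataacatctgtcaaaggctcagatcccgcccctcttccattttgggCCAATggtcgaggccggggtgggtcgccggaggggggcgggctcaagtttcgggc
Suclg2, chr6:95718847-95718966, minus strand: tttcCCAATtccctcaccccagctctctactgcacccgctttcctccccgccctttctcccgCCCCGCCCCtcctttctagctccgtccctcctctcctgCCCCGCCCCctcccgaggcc
Acadm, chr3:153944644-153944763, minus strand: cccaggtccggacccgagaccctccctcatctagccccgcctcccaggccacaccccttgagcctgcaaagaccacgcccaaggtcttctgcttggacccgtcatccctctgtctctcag
Hadha and Hadhb, chr5:30155163-30155247, plus strand: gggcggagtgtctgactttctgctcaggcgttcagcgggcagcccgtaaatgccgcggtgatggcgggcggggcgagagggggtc

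The Cs window holds 2 CCAAT motifs, 116 and 55 bases upstream of the annotated start. The Suclg2 window holds 1 CCAAT motif 116 bases upstream and 2 GC-rich motifs 58 and 20 bases upstream, none of which overlap. Neither motif is present in the Acadm window or in the 85 bases between Hadha and Hadhb. In RefSeq windows reaching from 250 bases before to 50 bases after the start, which exist for 28 of the 32 genes, CCAAT was found in at least 1 window of 13 genes (46.4%), and of 41.1% of the 27025 genes with a window. The 13 include 5 called genes: Cs, Eci2, Idh2 and Suclg2, which rose, and Idh3b, which fell and holds CCAAT 76 bases upstream. Acaa2 and Acat1 are among the genes without a window. GGGGCGGGG was found in 9 of the 28 genes (32.1%) and in 12.9% of all genes. The 27025 genes were not limited to the 12681 tested ones, whereas all 32 genes were tested, so the sets compared differ in expression. Some genes have several, partly overlapping windows: counted by window, CCAAT was in 18 of 33 windows of these genes (54.5%) and 37.4% of all 32851, and GGGGCGGGG in 11 of 33 (33.3%) and 11.4%. Of 8 further motifs searched on both strands, the palindromic motif of the factor NRF1 was found in 3 genes (5.19% of all genes), TGACGTCA in 2 (2.03%), and ACCGGAAGT and CACGTG in 1 each (1.21% and 8.09%). TNAAGGTCA, the direct repeat bound by PPAR receptors, TGACGCAA and TCACNCCAC were found in 0 of the 28 genes, against 1.43%, 0.0481%, 0.562% and 1.44% of all genes. These matches describe letters in a window and are no evidence of binding.

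Cs (ENSMUSG00000005683, chromosome 10, 128337734 to 128362479 on GRCm38) encodes citrate synthase, which joins acetyl-CoA to oxaloacetate in the first step of the cycle. Its level was 48.7, 49.7 and 44.8 FPKM in the controls and 66.7, 68.4 and 64.4 FPKM with metformin. The 3 metformin samples lay above the 3 controls without overlap, at means of 66.5 ± 2.01 and 47.7 ± 2.58 FPKM (SD, n = 3 each). Cs rose by 39.3%, with a log2 fold change of 0.47 (SE 0.084, limma adjusted p = 0.00900). The call was lost without metformin replicate 1 or metformin replicate 2.

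Idh2 (ENSMUSG00000030541, chromosome 7, 80094846 to 80115392) encodes the NADP-dependent isocitrate dehydrogenase of mitochondria. Controls had 54.7, 56.0 and 53.1 FPKM and metformin samples 67.3, 68.7 and 64.6 FPKM, so the highest control was below the lowest metformin sample. Idh2 rose by 22.4% (log2 fold change 0.29, SE 0.079, limma adjusted p = 0.0424). The call was the least stable of the 8: only without control replicate 1 was it kept among the fits that left out 1 sample (limma adjusted p = 0.00794), and after correction for the GC content of transcripts its adjusted p was 0.125.

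The NAD-dependent isocitrate dehydrogenase is built from the products of Idh3a, Idh3b and Idh3g, and only Idh3b was called. Idh3b (ENSMUSG00000027406, chromosome 2, 130279309 to 130284547) had 26.0, 28.4 and 25.2 FPKM in the controls and 20.4, 20.9 and 20.5 FPKM with metformin. All metformin samples were below all controls and lay within a narrow band. Idh3b fell by 22.2% (log2 fold change -0.35, SE 0.082, limma adjusted p = 0.0258), and the call was lost without control replicate 2 or without any 1 of the 3 metformin replicates. Its gene end overlaps Nop56, on the opposite strand, only from position 130279309 to 130279313. Nop56 had 19.1, 21 and 20.5 FPKM in the controls and 24.6, 23.8 and 23.5 FPKM with metformin. Whether counting used strand is not given in the sources used here.

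Idh3a, the catalytic subunit, had 11.8, 10 and 9.17 FPKM in the controls and 12.7, 12.2 and 12.8 FPKM with metformin. The groups did not overlap, but control replicate 1 came close to the metformin samples and the log2 fold change of 0.27 did not pass the test (limma adjusted p = 0.115; without control replicate 1, 0.35 and 0.00497). Idh3g, a regulatory subunit, overlapped between groups, with a log2 fold change of -0.061 (limma adjusted p = 0.767). The difference between the 3 subunits was not tested.

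**Figure D3:**
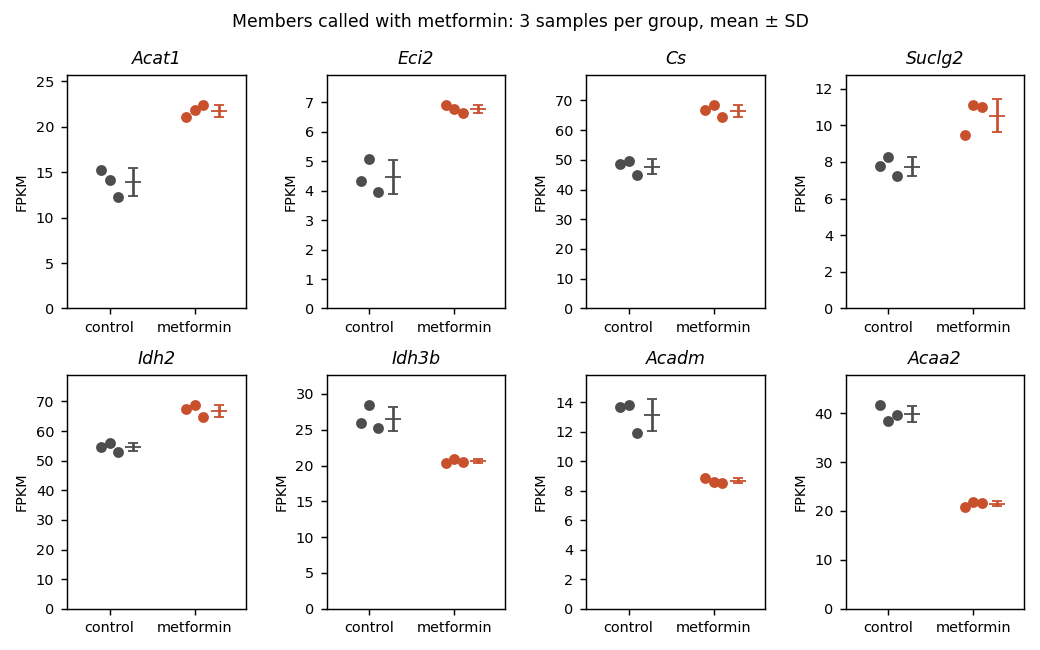
FPKM (y axis, from 0) of the 8 called genes in the 3 control and 3 metformin samples (x axis), with points for samples and bars for the mean ± SD. In each panel the groups do not overlap, with metformin above control for Acat1, Eci2, Cs, Suclg2 and Idh2 and below for Idh3b, Acadm and Acaa2.

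Ogdh and Dlst encode the first and second components of the 2-oxoglutarate dehydrogenase complex. Ogdh had 28.3, 28.9 and 28.9 FPKM in the controls and 24.9, 26.2 and 23.6 FPKM with metformin, with no overlap. Its log2 fold change of -0.20 did not pass the test (limma adjusted p = 0.127; without control replicate 1, -0.21 and 0.0358). Dlst overlapped between groups, with a log2 fold change of -0.069 (limma adjusted p = 0.646).

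Succinate-CoA ligase pairs the alpha subunit Suclg1 with an ATP-forming beta subunit, Sucla2, or a GTP-forming beta subunit, Suclg2. Suclg2 (ENSMUSG00000061838, chromosome 6, 95473009 to 95718800) had 7.75, 8.25 and 7.23 FPKM in the controls and 9.47, 11.1 and 11.0 FPKM with metformin. Metformin replicate 1 was the lowest of its group and still above every control. Suclg2 rose by 36.3% (log2 fold change 0.40, SE 0.10, limma adjusted p = 0.0264), and the call was lost without control replicate 3, metformin replicate 2 or metformin replicate 3. Its transcript is 98.9% identical over 1302 bases to the locus Gm15163, which had 3.87, 2.01 and 2.58 FPKM in the controls and 3.64, 3.10 and 1.81 FPKM with metformin, so reads could have been split between them.

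Suclg1 had 16.6, 16.4 and 15.0 FPKM in the controls and 17.2, 17.1 and 16.9 FPKM with metformin. The groups did not overlap by a small margin, and the log2 fold change of 0.086 did not pass the test (limma adjusted p = 0.479). Sucla2 had 13.4, 10.4 and 9.94 FPKM in the controls and 11.5, 11.7 and 12.2 FPKM with metformin, with control replicate 1 highest of all 6. The ratio of Sucla2 to Suclg2 was 1.72, 1.26 and 1.37 in the controls and 1.21, 1.05 and 1.11 with metformin, every metformin ratio being below every control ratio. The log2 difference of -0.36 gave p = 0.1 by an exact two-sided permutation test, the smallest p that 3 against 3 allows, and 0.300 after adjustment over the 3 ratios examined. The difference was -0.23 without control replicate 1.

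The remaining steps of the cycle showed no called gene. Fh1, fumarase, had a log2 fold change of 0.013 (limma adjusted p = 0.945), and its sign turned under scaling by total reads and under GC correction. Mdh2, the mitochondrial malate dehydrogenase, had 48.9, 62.5 and 58.5 FPKM in the controls and 68.1, 66.5 and 63.3 FPKM with metformin. Its groups did not overlap, but the controls were widely spread and the log2 fold change of 0.22 did not pass the test (limma adjusted p = 0.206). Mdh1, the cytosolic malate dehydrogenase of the malate-aspartate shuttle, had the highest single level of the 32 genes, 72.5 FPKM in control replicate 1, against 53.4 and 45.7 FPKM in the other controls and 63.8, 66.7 and 65.2 FPKM with metformin. Its log2 fold change was 0.21 (limma adjusted p = 0.410), and 0.39 without control replicate 1 (limma adjusted p = 0.00744).

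All 3 genes of carnitine-dependent entry lay lower with metformin in every sample, as did 20.5% of all tested genes, and their differences did not pass the test. Cpt1a, which loads long-chain acyl groups on carnitine at the outer membrane and is the controlled step of entry, had 30.5, 28.1 and 29.1 FPKM in the controls and 24.6, 26.2 and 24.9 FPKM with metformin (log2 fold change -0.20, limma adjusted p = 0.115). Slc25a20, the carrier that exchanges acylcarnitine for carnitine across the inner membrane, had 4.85, 4.87 and 4.98 FPKM against 4.15, 4.30 and 4.57 FPKM (-0.14, limma adjusted p = 0.219). Cpt2, which returns the acyl group to CoA inside, had 11.1, 11.2 and 9.11 FPKM against 7.38, 8.75 and 7.69 FPKM (-0.36, limma adjusted p = 0.0612). For each of the 3 genes the highest metformin sample was below the lowest control. Slc25a20 shares near-identical stretches with 19 other genes, so its reads are less certain.

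These 3 genes were called or not depending on the treatment of the data. Correction for GC content gave limma adjusted p values of 0.0344 for Cpt1a, 0.0360 for Cpt2 and 0.0456 for Slc25a20. Without control replicate 1 the values were 0.0432, 0.0518 and 0.115.

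The acyl-CoA dehydrogenases open each round of beta-oxidation and differ in the chain length they prefer. Acadm (ENSMUSG00000062908, chromosome 3, 153922357 to 153944632), the medium-chain enzyme, had 13.7, 13.8 and 11.9 FPKM in the controls and 8.86, 8.62 and 8.55 FPKM with metformin. The metformin samples lay close together and well below the lowest control. Acadm fell by 34.1% (log2 fold change -0.55, SE 0.086, limma adjusted p = 0.00565).

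Acads, the short-chain enzyme, had 22.1, 21 and 21.3 FPKM in the controls and 19.5, 18.7 and 20.2 FPKM with metformin. The groups did not overlap, and the log2 fold change of -0.13 did not pass the test (limma adjusted p = 0.267). Acadl, the long-chain enzyme, was the most abundant of the 4 by mean FPKM and overlapped between groups (log2 fold change 0.026, limma adjusted p = 0.869, turning in sign under scaling by total reads and GC correction). Acadvl, the very-long-chain enzyme, spread from 11.5 to 17.0 FPKM within the controls alone and had a log2 fold change of -0.059 (limma adjusted p = 0.803). A stretch of 256 bases of Acadvl is shared with the neighbouring gene Dvl2 on the opposite strand.

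Among the hydratase, dehydrogenase and thiolase steps, 1 of 6 genes rose and 1 fell, where 13.2% of all tested genes rose and 9.28% fell. Acaa2 (ENSMUSG00000036880, chromosome 18, 74779197 to 74806207), the mitochondrial 3-ketoacyl-CoA thiolase that releases acetyl-CoA in the last step of each round, had 41.6, 38.3 and 39.7 FPKM in the controls. With metformin it had 20.9, 21.8 and 21.7 FPKM, so each metformin sample was far below each control. The means were 39.8 ± 1.68 and 21.5 ± 0.503 FPKM (SD, n = 3 each). Acaa2 fell by 0.86 on the log2 scale (SE 0.078, limma adjusted p = 0.00055).

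Acat1 (ENSMUSG00000032047, chromosome 9, 53580522 to 53610382) encodes the mitochondrial acetoacetyl-CoA thiolase, which also acts in ketone body and isoleucine metabolism. It had 15.3, 14.2 and 12.3 FPKM in the controls and 21.1, 21.8 and 22.4 FPKM with metformin, and the lowest metformin sample was well above the highest control. The means were 13.9 ± 1.49 and 21.8 ± 0.654 FPKM (SD, n = 3 each). Acat1 rose by 0.61 on the log2 scale (SE 0.10, limma adjusted p = 0.00596). In the controls Acaa2 was the more abundant of these thiolases in every sample, whereas with metformin their ranges in FPKM overlapped.

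Hadha and Hadhb encode the alpha and beta subunits of the trifunctional protein, which carries the later steps for long chains at the inner membrane. Hadha had 12.0, 12.5 and 12.4 FPKM in the controls and 13.5, 14.6 and 13.8 FPKM with metformin, without overlap. Its log2 fold change of 0.17 did not pass the test (limma adjusted p = 0.157). Hadhb overlapped between groups (log2 fold change -0.016, limma adjusted p = 0.940, and 0.032 after GC correction). The ratio of Hadha to Hadhb was 1.39, 1.52 and 1.83 in the controls and 1.81, 1.70 and 1.92 with metformin, a log2 difference of 0.20 with overlapping samples (exact two-sided permutation p = 0.300, adjusted p = 0.450). It was 0.12 without control replicate 1 and 0.31 without control replicate 3.

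Hadh, the short-chain 3-hydroxyacyl-CoA dehydrogenase, and Echs1, the short-chain enoyl-CoA hydratase, overlapped between groups. Their log2 fold changes were -0.063 (limma adjusted p = 0.708) and -0.10 (limma adjusted p = 0.451).

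Unsaturated fatty acids need isomerases and a reductase before beta-oxidation can proceed, and in the data the 2 isomerases lay on opposite sides. Eci2 (ENSMUSG00000021417, chromosome 13, 34977748 to 35027096) had 4.34, 5.08 and 3.95 FPKM in the controls and 6.91, 6.78 and 6.63 FPKM with metformin. The metformin samples formed a tight group above the controls. Eci2 rose by 52.1% (log2 fold change 0.52, SE 0.10, limma adjusted p = 0.0111), and the call was lost without any 1 of the 3 metformin replicates. Its transcript is 95.9% identical over 612 bases to Gm15287, which is at 0 in all samples. It also shares near-identical stretches with Gm15280 and with Zfp445, which was expressed above Eci2 itself, at 15.9, 10 and 10.8 FPKM in the controls and 8.88, 8.73 and 10 FPKM with metformin, so the reads of Eci2 are less certain.

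Eci1 had 20, 26.4 and 24.4 FPKM in the controls and 17.8, 19.1 and 18.8 FPKM with metformin. Every metformin sample was below every control, although control replicate 1 was close, and the log2 fold change of -0.32 did not pass the test (limma adjusted p = 0.0913; without control replicate 1, -0.43 and 0.00221). Decr1, the 2,4-dienoyl-CoA reductase, overlapped between groups with a log2 fold change of -0.013 (limma adjusted p = 0.921; 95% interval -0.19 to 0.16).

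Electrons from the acyl-CoA dehydrogenases pass through the flavoprotein made of Etfa and Etfb to Etfdh, which hands them to ubiquinone. Etfdh had 5.85, 6.27 and 5.72 FPKM in the controls and 5.14, 4.99 and 4.95 FPKM with metformin, without overlap. Its log2 fold change of -0.20 did not pass the test (limma adjusted p = 0.1; without control replicate 1, -0.21 and 0.0393). Etfa and Etfb overlapped between groups, with a log2 fold change of 0.089 for each (limma adjusted p = 0.524 and 0.755). Etfb rested on 83 to 159 reads a sample, the fewest of the 32 genes, and was lowest in control replicate 1, at 3.91 FPKM.

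The ratio of Etfa to Etfb was 7.83, 5.25 and 4.54 in the controls and 5.44, 5.48 and 6 with metformin. The controls spanned the metformin samples, and the log2 difference was -0.019 (exact two-sided permutation p = 1.00).

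The genes around the 2 pathways were taken from a list of 86, of which 73 could be tested. Of these, 13 rose and 3 fell, together 21.9% against the 22.5% of all genes (13.2% higher and 9.28% lower). Among 17 tested genes for the rest of the cycle and its carriers, 6 rose (13.2% of all genes) and 12 had all metformin samples above all controls (23.6% of all genes). The 6 were carriers, malic enzymes and cytosolic enzymes. No subunit of succinate dehydrogenase, a cycle enzyme, was called. The log2 fold changes of Sdha, Sdhb, Sdhc and Sdhd were 0.16, -0.06, 0.14 and 0.083 (limma adjusted p = 0.231, 0.726, 0.382 and 0.652).

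Acly, which splits exported citrate into cytosolic acetyl-CoA, had 22.1, 19.6 and 21.2 FPKM in the controls and 38.7, 41.1 and 36.3 FPKM with metformin (log2 fold change 0.85, SE 0.09, limma adjusted p = 0.00104). Me1, the cytosolic malic enzyme that forms NADPH, had 17.8, 13.7 and 13.8 FPKM against 31.4, 31.8 and 30.0 FPKM (1.00, SE 0.12, limma adjusted p = 0.00160). Neither gene overlapped between groups. Slc25a10, the dicarboxylate carrier, rose by 0.99 on the log2 scale, the malic enzyme Me2 by 0.76, the cytosolic isocitrate dehydrogenase Idh1 by 0.52 and the oxoglutarate carrier Slc25a11 by 0.43 (limma adjusted p = 0.00500, 0.00333, 0.0308 and 0.0147).

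At pyruvate entry 4 of 14 genes rose, where 13.2% of all genes rose. They were Pdk1 and Pdk4, kinases that inhibit pyruvate dehydrogenase, with log2 fold changes of 1.03 and 0.51 (limma adjusted p = 0.00153 and 0.0441), Pcx, pyruvate carboxylase, with 0.75 (0.0106), and Dlat, a pyruvate dehydrogenase subunit, with 0.33 (0.0216). Of the other pyruvate dehydrogenase subunits, Pdha1 and Pdhx had 0.16 and 0.09, and Pdhb and Dld -0.32 and -0.36. None of them was called (limma adjusted p = 0.243, 0.615, 0.216 and 0.158). With metformin Pdhb and Dld lay below every control, and GC correction gave limma adjusted p = 0.0435 and 0.0145. The kinases Pdk2 and Pdk3 had -0.36 and 0.44, also uncalled (limma adjusted p = 0.118 and 0.112). Pdk1 was low in all samples, at 1.46, 0.889 and 1.12 FPKM in the controls and 3.58, 3.42 and 3.16 FPKM with metformin, without overlap.

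For the supply of fatty acids, the acyl-CoA synthetases Acsl1 and Acsl5 rose by 0.54 and 0.64 on the log2 scale (limma adjusted p = 0.00447 and 0.00911), and the fatty acid transporter Slc27a1 fell by 1.05 (limma adjusted p = 0.00135). Slc27a1 had 5.14, 6.10 and 6.91 FPKM in the controls and 2.23, 2.67 and 2.30 FPKM with metformin, without overlap. The mitochondrial deacetylase Sirt3 fell by 0.40 (limma adjusted p = 0.0368).

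Without control replicate 1, 24 of the 73 genes were higher and 9 lower, against 23.4% and 20.4% of all genes. Without metformin replicate 1, 2 or 3, 7, 6 and 8 were higher and 2 lower in each case. Of all genes, 7.40%, 7.44% and 7.77% were higher and 3.90%, 4.08% and 4.20% lower in these fits. After GC correction 15 were higher and 12 lower, against 16.3% and 19.2% of all genes. Pdk1, Acly, Me1, Me2, Slc25a10, Acsl1 and Slc27a1 were called with any 1 sample left out. Pdk4, Idh1 and Sirt3 were the least stable: of the fits with 1 sample left out they were called only without control replicate 1 (limma adjusted p = 0.000887, 0.00115 and 0.0231), and they were not called when the filter on low values was omitted (0.0857, 0.0615 and 0.0653). With voom on the recovered reads the log2 fold change of Sirt3 was -0.86. Dlat lost its call without control replicate 2 or any 1 metformin replicate, Slc25a11 without any 1 metformin replicate, Pcx without metformin replicate 1 or 2, and Acsl5 without metformin replicate 2.

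**Figure D4:**
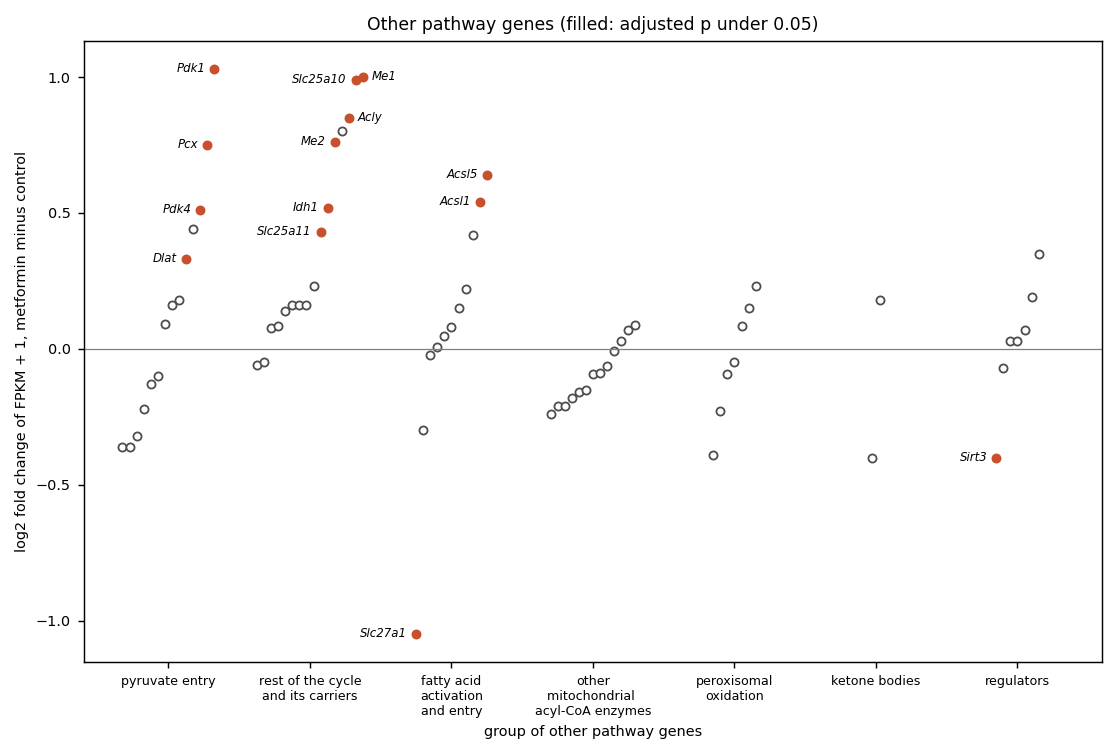
Log2 fold change of FPKM + 1, metformin minus control (y axis), of tested genes around the 2 pathways (3 of the 73 are not drawn), by group (x axis), with filled and named points for an adjusted p under 0.05. The points for the rest of the cycle and its carriers lie mostly above 0, up to 1.00 for Me1, and Slc27a1 is the lowest point drawn at -1.05.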

How the data were processed

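RNA was extracted with Trizol and libraries were made with an Illumina TruSeq kit, per the labels. The deposited table gives 1 value per gene and sample with no unit in its header. The values were identified as FPKM because multiplying them by gene length gave, within a sample, whole multiples of a single step (tolerance 0.0001, all values above 0), which also gave the reads. The aligner, counter, annotation and strand setting that the authors used for this table are not given in the sources used here. The submitters' processing notes list Bowtie 0.12.2, mm8 and mm9, but 53585 of 54532 genes have the coordinates of GENCODE M21 (GRCm38), including 29 of the 32 genes described; Acaa2, Cpt1a and Eci1 differ, and positions are those of the table.

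Genes with a mean of at least 0.5 FPKM were tested with limma 3.58.1 (R 4.3.3) with an intensity trend on log2(FPKM + 1), for 3 metformin against 3 control samples, with Benjamini-Hochberg adjustment over 12681 genes. The main test used the deposited FPKM values, and voom on the recovered reads was run as an alternative. The scripts were tested on simulated data: with 200 changed genes of 12681, the limma fit recovered 185 and made 13 false calls. That simulation held no sample standing apart and no GC effect, so it cannot show the error rate in these data. Ratios of subunits were tested by exact permutation (scipy 1.17.1). Near-identical transcripts (at least 95% over 200 bases) were found with BLAST 2.17.0. Alternatives comprised another pseudocount (0.1), total-read scaling, omission of the filter, a minimum of 10 reads per sample, voom on the recovered reads, a replicate block, correction for GC content (spline, 5 df, GC of the longest transcript), the block with that correction, and leaving out each sample. The GC correction also brought the samples to the same mean level over genes with a GC value. Samples were grouped by their titles.

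The 32 genes, the 86 other genes and the marker lists were chosen with earlier results of these data known. All 32 are named, with values per sample where the gene was called or the groups did not overlap. Other genes were named where called. Esrra, Slc25a1, Pdk2, Pdk3, the succinate dehydrogenase subunits, the uncalled pyruvate dehydrogenase subunits and the genes sharing sequence with the 32 were named after their values had been seen. For 3 of the other genes single values are not reported here, although the counts include them. Intervals cover the spread between samples, and the sources describe the replicates as biological.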

Additional observations from a re-analysis of the deposited data

How the results depend on the processing

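All 8 calls among the 32 genes were kept with another pseudocount (0.1), total-read scaling, omission of the filter, a minimum of 10 reads per sample and voom on the recovered reads, and Acaa2, Acadm and Acat1 were called in every fit run. The cause of the changes below was not tested. All tested genes gave 1670 higher and 1177 lower. The lower count became 698 with the replicate block, 2433 with GC correction and 1888 with both. Leaving out 1 sample gave 938 to 2969 higher and 495 to 2590 lower. Of the 32 genes, 5 were higher and 3 lower. The higher count was 3 with the replicate block and 1 to 8 with 1 sample left out, and the lower count was 8 with GC correction and 2 to 7 with 1 sample left out. GC correction lost Idh2 and added Cpt1a, Cpt2, Eci1, Ogdh and Slc25a20, all on the lower side. It moved all genes by a median of -0.0542 on the log2 scale, and the part of that shift in these calls was not tested. Of the other pathway genes, 13 were higher (6 to 24 with 1 sample left out) and 3 lower (2 to 9 with 1 sample left out, 12 with GC correction, 8 with the block and GC correction). Of these 16 calls, 4 were lost without the filter and 5 with the replicate block.

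Same-numbered samples did not deviate together (correlations of -0.0533, 0.000265 and -0.0549), and the labels do not say that they belong together. With 3 samples a group and control replicate 1 standing apart, these correlations cannot settle whether samples were paired. With the replicate block 5 of the 32 genes were called, 14.7% of all genes being called, and Idh2, Idh3b and Suclg2 had limma adjusted p values of 0.153, 0.1 and 0.0785.

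The log2 difference in the Etfa to Etfb ratio ran from -0.19 to 0.21 with 1 sample left out. Among the 32 genes, sign changes in log2 fold change were seen only for uncalled genes. Fh1 was -0.014 with scaling by total reads and -0.062 with GC correction, with or without the block. Acadl was -0.0014 and -0.039 in the same fits, and Hadhb was 0.032 with GC correction. With 1 sample left out the ranges were -0.16 to 0.064 for Idh3g, -0.00049 to 0.20 for Sucla2, -0.076 to 0.085 for Fh1, -0.022 to 0.082 for Acadl, -0.20 to 0.056 for Acadvl, -0.11 to 0.046 for Hadhb, -0.14 to 0.019 for Hadh, -0.037 to 0.0072 for Decr1 and -0.11 to 0.20 for Etfb. GC correction moved all genes by a median of -0.0542 and scaling by total reads by -0.0246 on the log2 scale.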

Other observations

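Of the 86 genes around the 2 pathways, 13 were under a mean of 0.5 FPKM and were not tested. They include several genes typical of tissues that burn much fat: Cpt1b, the muscle form of carnitine palmitoyltransferase, had 0 to 2 reads a sample, Ppargc1a, a coactivator of mitochondrial genes, had 1 to 6, and Cd36, a fatty acid transporter, had 0 to 4. Pparg, the adipocyte regulator, had 0 to 13 reads. Ppara and Esrrg, nuclear receptors that act on fatty acid oxidation genes, had 0 reads in all 6 samples, which allows up to 1.4e-05% to 1.6e-05% of reads (3 reads a sample, counting error only). Acacb, which makes the malonyl-CoA that inhibits carnitine-dependent entry, had 0.0284, 0.0198 and 0.0370 FPKM in the controls and 0.0837, 0.119 and 0.123 FPKM with metformin, on 4 to 25 reads a sample.

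Among the regulators that were tested, Esrra was lowest in control replicate 1, at 8.35 FPKM against 22.4 and 24.7 FPKM in the other controls (log2 fold change with metformin 0.35, limma adjusted p = 0.536). Without that sample the log2 fold change turned to -0.11 (limma adjusted p = 0.193). The citrate carrier Slc25a1 had 9.69, 24.4 and 23.8 FPKM in the controls and 32, 31.4 and 32.4 FPKM with metformin, and its log2 fold change was 0.80 (limma adjusted p = 0.130) with control replicate 1 and 0.39 (limma adjusted p = 0.00149) without it.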
